A study of Mus musculus with 14 samples.

Results

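The genes described here are 37 symbols of glycolysis and of the cellular response to low oxygen, given as a list of names. This list and the further gene lists below were chosen with earlier results of these data known. Shares of their genes called, set beside the shares of all genes, are therefore a description only. Of these symbols, 36 were rows of both expression tables, each of 23284 genes, and Pkm was not a row under that symbol. RNA-seq had been made from EpH4 cells, a mouse mammary gland epithelial line, and from EpRas cells, the derivative of that line transformed with H-RasG12V. Untransfected EpH4 and EpRas cells were untreated or received TGF-β (TGF-β3, 1 ng/ml) for 48 h, with 2 libraries in each of 4 groups. EpRas cells were also transfected with siNC, a control siRNA, or with 1 of 2 pairs of siRNAs, each pair made of an siRNA against Etv4 and an siRNA against Etv5. Each of these 3 conditions was grown both untreated and with TGF-β, and each gave 1 library. EpRas is a single transformed line, and EpH4 cells were grown in 10% serum while EpRas cells were grown in 4%, so serum and line cannot be told apart. The 2 tables were made in separate runs of Cuffdiff, so tests stay within a table and levels set beside each other across tables are for orientation only.

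Glycolysis takes glucose to pyruvate in the cytosol, and cells that ferment reduce the pyruvate to lactate and export it. The transcription factor HIF-1, a dimer of Hif1a and Arnt, raises many of these genes when oxygen is low. At normal oxygen, prolyl hydroxylases of the Egln family mark Hif1a for destruction through Vhl. Several Egln genes and other members here are targets of HIF-1 in turn. Glycolytic transcripts are abundant in growing mammary epithelial cells and in Ras-transformed cells.

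The core of the element that HIF-1 binds is ACGTG or GCGTG. Both were searched on both strands in the RefSeq promoter windows of GRCm38.p6, which run from 250 bases before a start site to 50 bases after it. Of the 37 symbols, 35 matched a window. ACGTG was present in at least 1 window of 24 of the 35 genes (68.6%), against 21.8% of all 27025 genes with a window. By window, it was in 50.9% of the 55 windows of these genes and 19.6% of all 32851 windows. GCGTG was in a window of 24 of the 35 genes (68.6%), against 35.2% of all genes, and in 58.2% of their windows against 32.4% of all. Either core was in a window of 32 of the 35 genes (91.4%), against 46.7% of all genes. The 2 searches overlap only through shared windows, and in the palindrome CACGTG a single site is read on both strands. These are matches of letters, with no measurement of binding. Stretches of 120 bases before the start site are shown for 6 members whose transcripts differed in the comparisons below, because they show how the cores are placed where several copies sit close together (Bnip3, Ldha), where 1 copy lies near the start site (Car9) and where it lies far from it (Egln3). The start site follows the last base, except for Egln3, where the stretch runs from position -250 to position -131. Capitals mark ACGTG and GCGTG or their reverse complements.
Slc2a1, chr4:119108625-119108744, plus strand: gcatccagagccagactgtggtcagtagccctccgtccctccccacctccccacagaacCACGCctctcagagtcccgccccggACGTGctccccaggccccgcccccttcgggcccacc
Bnip3, chr7:138909507-138909626, minus strand: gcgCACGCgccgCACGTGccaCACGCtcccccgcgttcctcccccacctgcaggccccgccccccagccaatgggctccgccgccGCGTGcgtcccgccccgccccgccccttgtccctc
Car9, chr4:43506906-43507025, plus strand: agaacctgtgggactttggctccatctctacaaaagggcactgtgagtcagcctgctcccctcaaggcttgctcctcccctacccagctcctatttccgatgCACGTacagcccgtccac
Ldha, chr7:46845684-46845803, plus strand: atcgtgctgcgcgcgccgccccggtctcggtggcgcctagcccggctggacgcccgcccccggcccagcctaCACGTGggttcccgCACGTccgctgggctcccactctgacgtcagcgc
Adm, chr7:110627537-110627656, plus strand: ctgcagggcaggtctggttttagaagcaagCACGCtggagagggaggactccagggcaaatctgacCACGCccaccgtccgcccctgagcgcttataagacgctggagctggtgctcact
Egln3, chr12:54204005-54204124, minus strand: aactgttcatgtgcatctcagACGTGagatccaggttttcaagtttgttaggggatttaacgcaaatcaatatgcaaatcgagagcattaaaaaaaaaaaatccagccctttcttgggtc

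The libraries of untransfected cells differed in relative depth from 0.609 to 1.356 and those of transfected cells from 1.00 to 1.74, as read from the steps between low FPKM values. The correlation of log2(FPKM + 1) between replicates was 0.912 in the EpRas cells with TGF-β, the lowest of the 4 groups, and 0.957 to 0.982 in the others. Etv4 was 57.4, 11.6 and 27.9 FPKM with siNC, pair 1 and pair 2 without TGF-β, and 64.3, 12.6 and 18.9 with it. Etv5 was 8.85, 1.61 and 1.26 FPKM without TGF-β and 5.34, 1.24 and 1.20 with it, so both targets were lower with either pair. Epcam and Krt18, markers of epithelial cells, were at or above 64.9 and 868 FPKM in every untransfected library, Ptprc and Pecam1, markers of blood and endothelial cells, were listed at 0 there, and Krt19 was at 0 in EpH4 cells and 17.1 to 37.4 in EpRas cells. Col1a1, a fibroblast collagen, was 18.7 and 21.2 FPKM in untreated EpH4 cells, 224 and 200.0 with TGF-β, and 1.57 to 2.78 in EpRas cells. Summed FPKM of 9 mammary epithelial markers was 5563 and 6739 in untreated EpH4 cells, 9831 or more with TGF-β, 4219 to 5348 in untreated EpRas cells and 2577 to 4418 with TGF-β, and of the 8 tested, 3 were called lower and 1 higher in EpRas cells without TGF-β and 5 lower and 1 higher with it. TGF-β raised 1 of the 8 in EpH4 cells and lowered 2 in EpRas cells. Summed over 12 markers of blood, endothelium, fibroblasts, fat and muscle, the level was 24.02 to 27.8, 220.1 to 242, 9.13 to 11.01 and 16.1 to 16.4 FPKM in the same order, and 3 of the 4 tested rose with TGF-β in EpH4 cells (limma). In transfected cells that sum was 11.7 to 29.1 FPKM without TGF-β and 19.2, 104 and 53.5 with it in siNC, pair 1 and pair 2. The part of these markers in the results below was not tested.

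FPKM counts the fragments of a gene relative to its exon length and to the fragments mapped in the library, and fold changes are differences of log2(FPKM + 1), which understate the change of genes with few FPKM. A gene was tested where its highest value in a table reached 5 FPKM, and it was called at an adjusted p under 0.05 (limma, Benjamini-Hochberg over all genes tested). In the untransfected libraries 32 of the 36 genes passed that filter. The other 4 were Slc2a3 (0 to 0.136 FPKM) and Slc16a3 (0.0575 to 1.08), a glucose and a lactate transporter, Eno2 (0 to 1.07), the neuronal enolase, and Pfkfb3 (0.598 to 1.93), which makes the activator of phosphofructokinase. In whole reads, Slc2a3 had 0 to 3, Eno2 had 0 to 11 and Slc16a3 had 1 to 10 in a library. Some tested members passed the filter only through the group where they were high. Egln3 passed through 1 untreated EpRas library (5.42 FPKM), Adm and Ldhb through untreated EpH4 libraries, and Pdk1 and Ak4 through EpRas libraries. Among the siRNA libraries, Egln3 and Adm passed through untreated ones only. The filter favours calls of such genes against the other groups. With 2 libraries a group, an exact permutation test of 1 gene cannot go below p = 0.33, so p-values come from the fit across genes, and they measure the spread between these libraries only. In bulk RNA, fewer cells of a kind and less RNA per cell cannot be told apart.

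Without TGF-β, EpRas cells held more RNA of the glucose transporter Slc2a1, of most enzymes of the first part of glycolysis and of several HIF targets than EpH4 cells. Of the 32 genes tested, 13 were higher in EpRas cells, where 8.45% of all 9100 genes tested were called higher, and 1 was lower, where 9.11% were called lower. The median log2 fold change was 0.51 over the 32 genes and -0.0031 over all genes tested. By role, the calls were 1 of 2 transporters, 6 of 9 enzymes to triose phosphates, 0 of 4 enzymes from there to pyruvate (1 at an unadjusted p under 0.05, where 32.6% of all genes tested were), 0 of 2 lactate dehydrogenase subunits (both at an unadjusted p under 0.05), 2 of 3 regulators of flux, 1 of 2 prolyl hydroxylases and 4 of 10 other hypoxia-responsive genes.

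Slc2a1, the main glucose importer of epithelial cells, was 45.7 and 40.0 FPKM in the 2 EpH4 libraries and 102 and 96.8 in the EpRas libraries, 2.32 times as much on average. The groups stood far apart, and the log2 fold change was 1.20 ± 0.21 (SE), adjusted p = 0.00799. Slc16a1, which exports lactate, was 27.0 and 24.7 FPKM in EpH4 and 24.5 and 23.4 in EpRas cells, with a log2 difference of -0.11 (95% interval -0.52 to 0.30, adjusted p = 0.727). Aldoa, the major aldolase, was 920.0 and 793 FPKM in EpH4 and 1722 and 1616 in EpRas cells (0.96 ± 0.17 (SE), adjusted p = 0.00898). Aldoc, the minor aldolase, was 1.82 and 2.68 against 14.2 and 16.2 FPKM (2.33 ± 0.30 (SE), adjusted p = 0.00267), the largest log2 fold change among the 32 genes, from 8 and 16 reads to 38 and 81. Both aldolases were therefore higher in every EpRas library, one at a high level and one at a low level. Gpi1, the glucose-6-phosphate isomerase, was 153 and 154 against 273 and 288 FPKM (0.87 ± 0.16 (SE), adjusted p = 0.0106). Hk1, the constitutive hexokinase, was 31.2 and 29.2 against 46.2 and 43.5 FPKM (0.56 ± 0.16 (SE), adjusted p = 0.0483). Hk2, the inducible hexokinase, went the other way, with 14.1 and 15.2 FPKM in EpH4 and 10.7 and 9.73 in EpRas cells, a log2 difference of -0.48 (95% interval -0.81 to -0.14, adjusted p = 0.0602).

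The subunits of phosphofructokinase, the committing enzyme, differed in the same direction. Pfkl was 61.4 and 68.3 FPKM in EpH4 and 107 and 104 in EpRas cells (0.70 ± 0.14 (SE), adjusted p = 0.0154). Pfkp was 11.5 and 11.1 against 21.9 and 19.4 FPKM (0.82 ± 0.17 (SE), adjusted p = 0.0159). Pfkm was 14.1 and 13.2 against 20.0 and 19.5 FPKM and did not pass the test, with a log2 difference of 0.51 (95% interval 0.14 to 0.87, adjusted p = 0.0665). Pfkfb4, a bifunctional enzyme that sets the level of fructose-2,6-bisphosphate, was 5.07 and 4.89 FPKM in EpH4 and 14.2 and 10.6 in EpRas cells (1.15 ± 0.19 (SE), adjusted p = 0.0069). Pdk1, the kinase that keeps pyruvate out of the mitochondrial cycle, was 2.79 and 2.87 against 7.53 and 8.04 FPKM (1.20 ± 0.16 (SE), adjusted p = 0.0032). For each of these genes the lowest EpRas library was above the highest EpH4 library.

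Among the hypoxia-responsive genes, Egln3, a prolyl hydroxylase that is itself a HIF target, was 0.963 and 1.01 FPKM in EpH4 and 5.42 and 4.49 in EpRas cells (1.58 ± 0.16 (SE), adjusted p = 0.000941). Its sister Egln1 was 45.3 and 55.6 against 54.8 and 50.8 FPKM, and those groups overlapped. Bnip3, a mitochondrial protein of mitophagy, was 6.02 and 4.77 against 14.2 and 20.2 FPKM (1.5 ± 0.24 (SE), adjusted p = 0.00609). Car9, a carbonic anhydrase of the cell surface and a standard reporter of HIF activity, was 27.5 and 23.1 against 45.8 and 47.9 FPKM (0.87 ± 0.17 (SE), adjusted p = 0.0135). Mxi1, a Myc antagonist, was 7.68 and 5.39 against 10.7 and 14.1 FPKM (0.84 ± 0.22 (SE), adjusted p = 0.0379). Adm, which encodes the peptide adrenomedullin, was the single gene called lower, at 7.51 and 7.77 FPKM in EpH4 and 2.13 and 2.29 in EpRas cells (-1.43 ± 0.22 (SE), adjusted p = 0.00522), from 52 and 73 reads to 9 and 18. Adm therefore ran against Egln3, Bnip3 and Car9, although all are known as HIF targets.

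The 4 tested enzymes from glyceraldehyde phosphate to pyruvate were abundant and varied between replicates. Eno1, the ubiquitous enolase, was 76.6 and 165 FPKM in the EpH4 replicates and 249 and 272 in the EpRas replicates, with a log2 difference of 1.20 (95% interval -0.01 to 2.42, adjusted p = 0.157). Pgam1, the phosphoglycerate mutase, was 268 and 172 against 356 and 147 FPKM, and its replicates overlapped. The pooled replicate SD on the log2 scale was 0.802 for Pgam1, 0.677 for Eno1, 0.382 for Gapdh and 0.325 for Pgk1, against a median of 0.202 over all genes tested. In contrast, it was 0.0606 for Pfkl and 0.0777 for Ldha. These 4 enzymes have many processed copies in the mouse genome, among which an aligner may split reads. Reads shared with such copies were not counted here, so the values of these enzymes are best taken as uncertain, and whether the copies bear on them or on their spread was not tested. Pyruvate kinase, listed under its older symbol Pkm2 and so not one of the 36, was 1533 and 1598 FPKM in EpH4 and 1786 and 1144 in EpRas cells, with a replicate SD of 0.424.

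The count of 14 calls was 10 or 7 without EpH4 untreated replicate 1 or 2 and 6 or 8 without EpRas untreated replicate 1 or 2, while calls over all genes went from 1598 to 896, 780, 733 and 802. Over its alternatives in limma, Hk1 was called in 6 of 17, with adjusted p-values from 0.024 to 0.185, and Mxi1 in 8 of 16. Adm, Aldoc, Bnip3, Egln3, Pdk1 and Pfkfb4 were called in all 8 fits without 1 library. A Tukey-Kramer test on FPKM called 2.

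Of the members not described further, Ndrg1, a stress-response gene, lay between 42.2 and 55.3 FPKM over the 8 untransfected libraries, Higd1a, a mitochondrial protein, between 12.6 and 17.6, Pdk3, a pyruvate dehydrogenase kinase, between 21.1 and 29.3, and Tpi1, the triosephosphate isomerase, between 379 and 689. These 4 passed the threshold in none of the comparisons of either table.

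**Figure D1:**
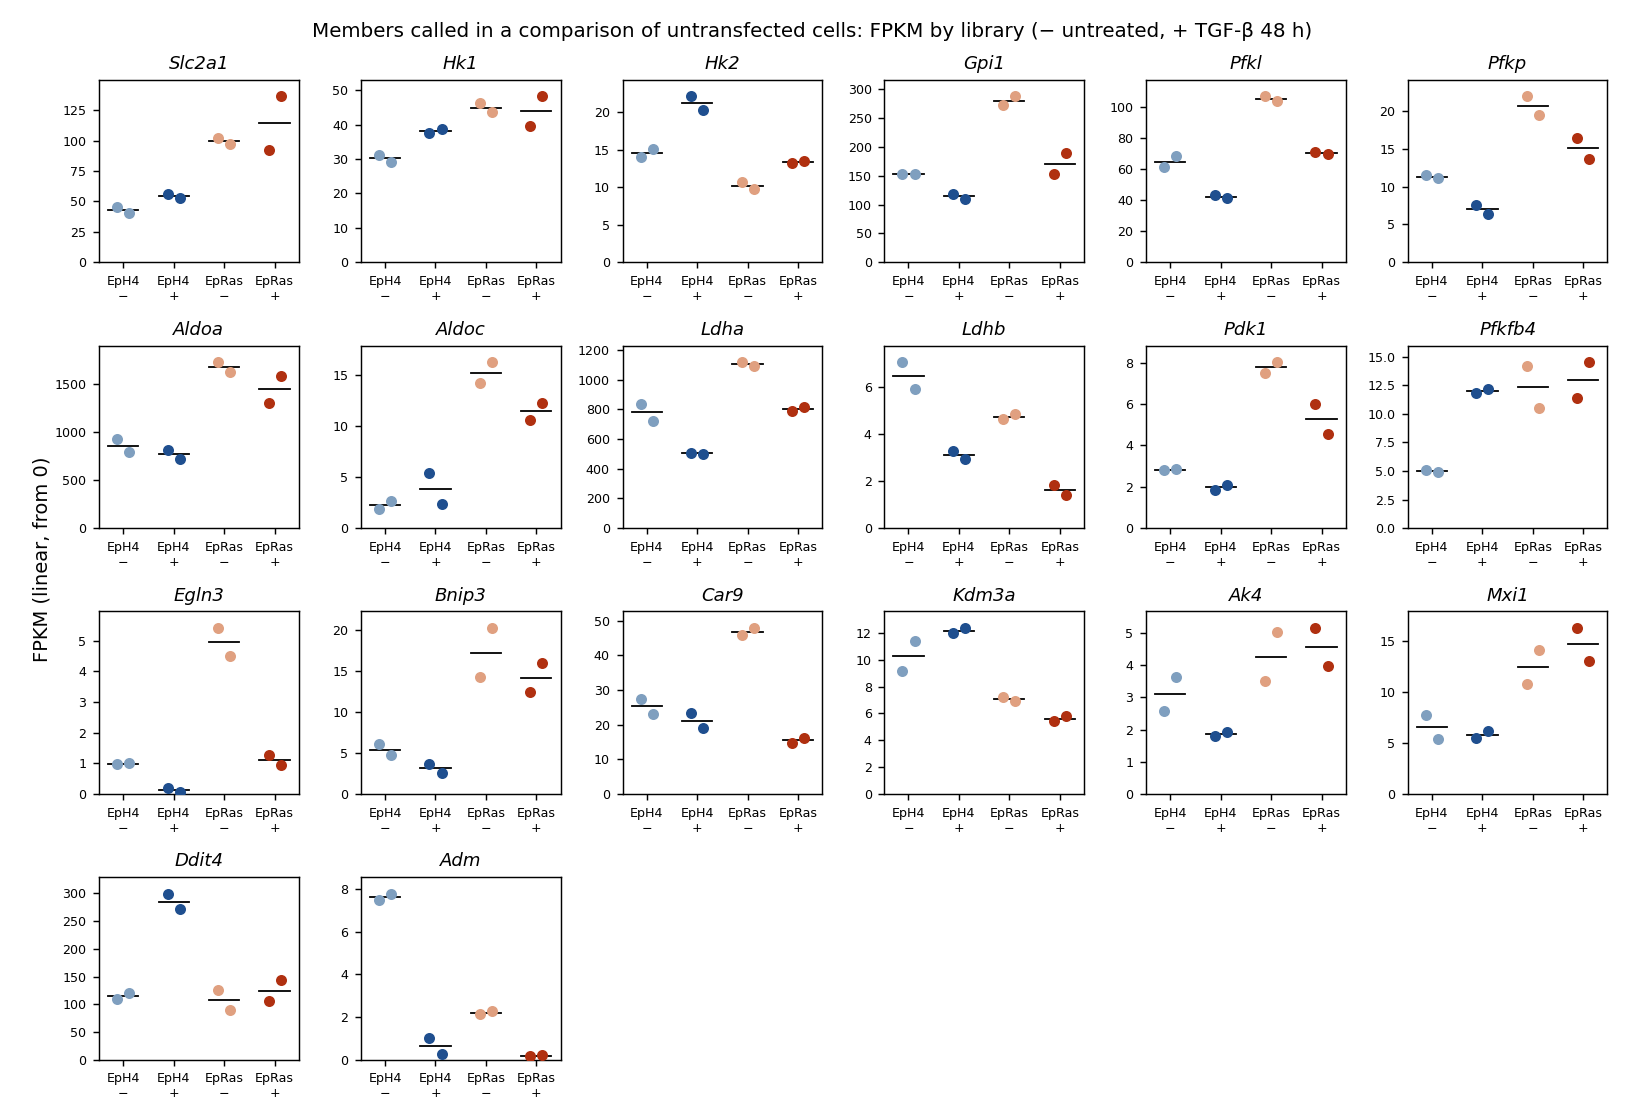
FPKM of the 20 members called in at least 1 comparison of untransfected cells, on linear axes from 0. Points are libraries, 2 per group, and the black line is their mean. Slc2a1, Aldoa, Bnip3 and Pdk1 stood higher in every EpRas library than in any EpH4 library, while Car9 and Egln3 were highest in the untreated EpRas libraries.

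With TGF-β in both lines, Slc2a1 and 5 enzymes of the first part of glycolysis were again called higher in EpRas cells, and Ldha was called as well. Of the 32 genes, 12 were higher in EpRas cells, against 8.92% of all genes tested, and 4 were lower, against 12.3%. The median log2 fold change was 0.26 over the 32 genes and -0.0077 over all genes. Slc2a1 was 55.9 and 52.5 FPKM in EpH4 and 92.2 and 136 in EpRas cells (1.03 ± 0.21 (SE), adjusted p = 0.0114). Aldoa was 814 and 721 against 1303 and 1583 FPKM (0.91 ± 0.17 (SE), adjusted p = 0.0089). The other glycolytic enzymes called higher were Aldoc, at 5.35 and 2.33 against 10.6 and 12.2 FPKM (log2 difference 1.43), Gpi1, Pfkl and Pfkp. Gpi1 was 119 and 110.0 against 152 and 189 FPKM (0.56), Pfkl was 43.2 and 41.2 against 71.4 and 70.1 (0.73) and Pfkp was 7.61 and 6.37 against 16.5 and 13.6 (1.00). Hk1 was 37.5 and 38.6 against 39.6 and 48.2 FPKM and was not called. Ldha, the lactate dehydrogenase subunit that favours lactate, was 508 and 497 against 786 and 816 FPKM (0.67 ± 0.14 (SE), adjusted p = 0.016), and untreated EpRas cells had 1118 and 1089.6. Ldhb, the subunit that favours pyruvate, was 3.25 and 2.91 against 1.82 and 1.41 FPKM (-0.65 ± 0.16 (SE), adjusted p = 0.0277). The 2 subunits thus differed in opposite directions between the lines, with no overlap of libraries for either. Ldhb had few reads, 15 and 20 in EpH4 and 10 and 6 in EpRas cells. Its call was lost with 5 FPKM added, with TPM scaling and with only the 2 groups compared.

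Bnip3 was 3.64 and 2.55 FPKM in EpH4 and 12.4 and 15.9 in EpRas cells with TGF-β (1.89 ± 0.24 (SE), adjusted p = 0.00162), the largest log2 difference among the 32 genes. As a plain ratio of mean FPKM, the difference was 4.57 for Bnip3 and 8.68 for Egln3, which had few reads. Pdk1 was 1.86 and 2.09 against 5.99 and 4.55 FPKM (1.07 ± 0.16 (SE), adjusted p = 0.00389). Mxi1 was 5.47 and 6.13 against 16.2 and 13.0 FPKM (1.19 ± 0.22 (SE), adjusted p = 0.00805). Ak4, a mitochondrial adenylate kinase, was 1.81 and 1.91 against 5.16 and 3.97 FPKM (0.95 ± 0.21 (SE), adjusted p = 0.0191), while without TGF-β it was 2.58 and 3.64 in EpH4 and 3.51 and 5.03 in EpRas cells and overlapped. Egln3 was 0.191 and 0.0641 against 1.28 and 0.928 FPKM (0.90 ± 0.16 (SE), adjusted p = 0.00811), on 2 and 1 reads in EpH4 cells and 16 and 9 in EpRas cells. Hk2 was 22.1 and 20.3 against 13.2 and 13.6 FPKM (-0.63 ± 0.14 (SE), adjusted p = 0.0201), lower in EpRas cells. Kdm3a, a histone demethylase induced by hypoxia, was 12.0 and 12.4 against 5.42 and 5.81 FPKM (-0.99 ± 0.16 (SE), adjusted p = 0.00433), and without TGF-β it was 9.16 and 11.4 against 7.21 and 6.94. Ddit4, an inhibitor of mTOR, was 299 and 271 against 105 and 144 FPKM (-1.20 ± 0.22 (SE), adjusted p = 0.00838). Car9, which was higher in EpRas cells without TGF-β, was 23.2 and 19.0 against 14.6 and 16.3 FPKM with it, a log2 difference of -0.43 (95% interval -0.82 to -0.03, adjusted p = 0.116). Without EpH4 TGF-β replicate 1 or 2 the calls numbered 7 or 4 in place of 16, while over all genes they numbered 822 or 901 in place of 1935, and the Tukey-Kramer test called 2 members. Gpi1 was called in 6 of its 17 alternatives in limma, with adjusted p-values from 0.0241 to 0.221. Bnip3, Kdm3a and Pdk1 were called in all 8 fits without 1 library.

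**Figure D2:**
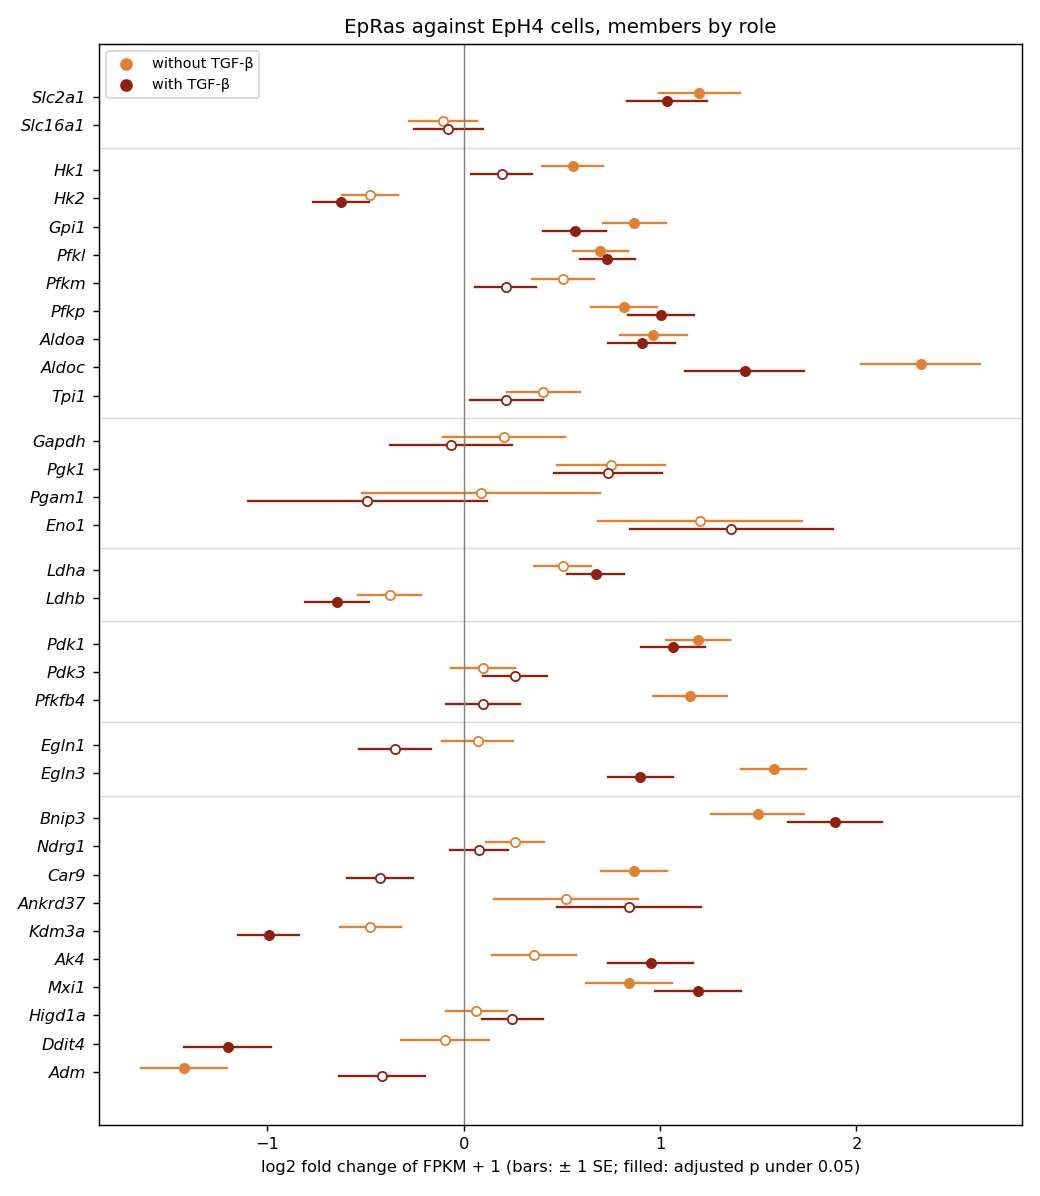
Difference between EpRas and EpH4 cells for the 32 tested members, without and with TGF-β, as log2 fold change of FPKM + 1 with bars of 1 SE. Filled points passed the test. Slc2a1, Gpi1, Pfkl, Pfkp, Aldoa, Aldoc, Pdk1, Egln3, Bnip3 and Mxi1 were filled in both.

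TGF-β lowered several of these genes in EpH4 cells. Of the 32 genes, 5 fell, against 2.91% of all genes tested, and 2 rose, a share near the 6.48% of all genes. The median log2 fold change was -0.24 over the 32 genes and -0.016 over all genes. Adm fell most, from 7.51 and 7.77 FPKM to 1.00 and 0.269 (-2.44 ± 0.22 (SE), adjusted p = 0.000756), or from 52 and 73 reads to 5 and 2. Egln3 fell from 0.963 and 1.01 to 0.191 and 0.0641 FPKM (-0.82 ± 0.16 (SE), adjusted p = 0.0233). Ldhb fell from 7.04 and 5.88 to 3.25 and 2.91 FPKM (-0.87 ± 0.16 (SE), adjusted p = 0.0177), and Ldha from 836 and 724 to 508 and 497 (-0.63 ± 0.14 (SE), adjusted p = 0.0379). In reads, Ldhb went from 45 and 51 to 15 and 20. Pfkl fell from 61.4 and 68.3 to 43.2 and 41.2 FPKM (-0.61 ± 0.14 (SE), adjusted p = 0.0387). Ddit4 rose from 109 and 119.7 to 299 and 271 FPKM (1.31 ± 0.22 (SE), adjusted p = 0.0124). Pfkfb4 rose from 5.07 and 4.89 to 11.8 and 12.2 FPKM (1.12 ± 0.19 (SE), adjusted p = 0.0124). In each of these 7 genes the treated and untreated libraries did not overlap. Car9 was 27.5 and 23.1 FPKM untreated and 23.2 and 19.0 with TGF-β, a log2 difference of -0.25 (95% interval -0.65 to 0.14, adjusted p = 0.421). Adm alone was called in every fit that left out 1 library, and leaving out any of the 4 EpH4 libraries (untreated replicate 1 or 2, TGF-β replicate 1 or 2) left 1 call, with 366, 347, 239 and 264 calls over all genes in place of 855. Ldha was called in 7 and Pfkl in 8 of 17 alternatives in limma. The Tukey-Kramer test also called 1.

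In EpRas cells TGF-β lowered 4 of the 32 genes, against 1.92% of all genes tested, and raised 0, against 1.9%. The median log2 fold change was -0.27 over the 32 genes and -0.019 over all genes. Car9 fell from 45.8 and 47.9 to 14.6 and 16.3 FPKM (-1.54 ± 0.17 (SE), adjusted p = 0.00347), to 0.329 of its untreated mean, so that it passed from well above the EpH4 libraries to below them. Egln3 fell from 5.42 and 4.49 to 1.28 and 0.928 FPKM (-1.5 ± 0.16 (SE), adjusted p = 0.00347), or from 48 and 74 reads to 16 and 9. Adm fell from 2.13 and 2.29 to 0.168 and 0.216 FPKM (-1.43 ± 0.22 (SE), adjusted p = 0.0146), with 1 read left in each library. Ldhb fell from 4.62 and 4.83 to 1.82 and 1.41 FPKM (-1.14 ± 0.16 (SE), adjusted p = 0.0101), or from 18 and 35 reads to 10 and 6. Bnip3, known as a HIF target like Car9, was 14.2 and 20.2 FPKM untreated and 12.4 and 15.9 with TGF-β, with overlapping libraries. Slc2a1 was 102 and 96.8 and then 92.2 and 136 FPKM, and it overlapped as well. Gapdh was 1493 and 1546 FPKM untreated and 567 and 1193 with TGF-β, and the lowest values of Gapdh, Pgam1, Tpi1 and Pgk1 among the EpRas libraries all lay in TGF-β replicate 1, while Eno1 had its highest value there (324 FPKM, against 149, 249 and 272). No member rose at an adjusted p under 0.05 in limma, and 14 of the 32 were at an unadjusted p under 0.05 in either direction, against 15.8% of all genes tested, 1 of them higher.

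These 4 calls rested on the spread pooled over all 4 groups. A fit with only the 2 EpRas groups called 0 members and 45 of all genes, and the Tukey-Kramer test called 0. Without EpRas untreated replicate 1 or 2 the calls numbered 2 in each case, with 129 and 127 over all genes in place of 348. They were Car9 and Egln3, which were called in all 8 fits without 1 library.

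The test of a difference in the TGF-β effect between the lines (limma) called 0 members, where 0.176% of all genes tested had a more positive and 0.626% a more negative effect in EpRas cells. At an unadjusted p under 0.05 there were 6 of the 32 members, against 10.9% of all genes tested. Car9 came nearest, with a difference in effect of -1.29 (95% interval -1.85 to -0.73, adjusted p = 0.0729) on the log2 scale, and it was called at an adjusted p of 0.0492 when 5 FPKM were added before the logarithm. Over the 16 alternative fits of this term its adjusted p ran from 0.0492 to 0.373. For Ddit4 the difference was -1.11 (95% interval -1.84 to -0.37, adjusted p = 0.249), and for Pfkfb4 it was -1.05 (95% interval -1.68 to -0.43, adjusted p = 0.204). In EpRas cells Ddit4 was 126 and 90.5 FPKM untreated and 105 and 144 with TGF-β, and Pfkfb4 was 14.2 and 10.6 and 11.4 and 14.5, with overlapping libraries for both.

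In the transfected EpRas cells, TGF-β was compared with no TGF-β within siNC, pair 1 and pair 2. These 6 libraries are separate from the untransfected ones. Among the siRNA libraries 33 of the 36 genes were tested, with Pfkfb3 now above the filter. TGF-β lowered 4 of the 33, against 1.55% of all 9094 genes tested, and raised 0, against 2.62%. The median log2 fold change was -0.38 over the 33 genes and 0.0020 over all genes. The 4 were Car9, Egln3, Adm and Bnip3. Of them 3 were also among the 4 called in untransfected EpRas cells, and Ldhb was the fourth there. Car9 was 59.4, 33.3 and 62.3 FPKM without TGF-β with siNC, pair 1 and pair 2, and 18.9, 9.22 and 13.9 with it (-1.81 ± 0.15 (SE), adjusted p = 0.0116). It stood at 31.8%, 27.7%, 22.3% of the untreated level. Egln3 went from 11.9, 6.93 and 10.4 to 3.81, 1.34 and 1.5 FPKM (-1.79 ± 0.19 (SE), adjusted p = 0.0167), or from 219, 173 and 244 reads to 122, 34 and 34. Bnip3 went from 33.1, 17.4 and 27.0 to 12.1, 7.97 and 9.94 FPKM (-1.25 ± 0.14 (SE), adjusted p = 0.0178). For these 3 genes all treated libraries lay below all untreated ones. Adm went from 2.97, 6.38 and 3.68 to 1.05, 2.73 and 0.461 FPKM (-1.21 ± 0.19 (SE), adjusted p = 0.0357), falling within each siRNA condition.

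Further members differed without passing the test. Ankrd37, a small nuclear protein encoded by a HIF target, went from 4.02, 9.17 and 9.64 to 2.31, 2.36 and 2.48 FPKM, a log2 difference of -1.27 (95% interval -1.87 to -0.67, adjusted p = 0.0529). Pdk1 went from 6.14, 5.72 and 8.55 to 3.06, 3.84 and 2.74 FPKM, a difference of -0.88 (95% interval -1.38 to -0.38, adjusted p = 0.0788). Pfkl went from 85.2, 104 and 80.5 to 55.9, 57.8 and 53.6 FPKM, a difference of -0.67 (95% interval -1.01 to -0.33, adjusted p = 0.0617). Ddit4 moved the other way, from 84.5, 115 and 134 to 139, 179 and 213 FPKM (0.67 (95% interval 0.35 to 0.99, adjusted p = 0.0533)). At an unadjusted p under 0.05 there were 19 of the 33 members in either direction, against 21.9% of all genes tested. The fit without pair 1 and the fit without pair 2 called 0 members each, and so did the fit with no filter on low values, which called 1 of all genes. Adm lost its call in 6 of 7 alternatives, with adjusted p-values from 0.0381 to 0.217.

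**Figure D3:**
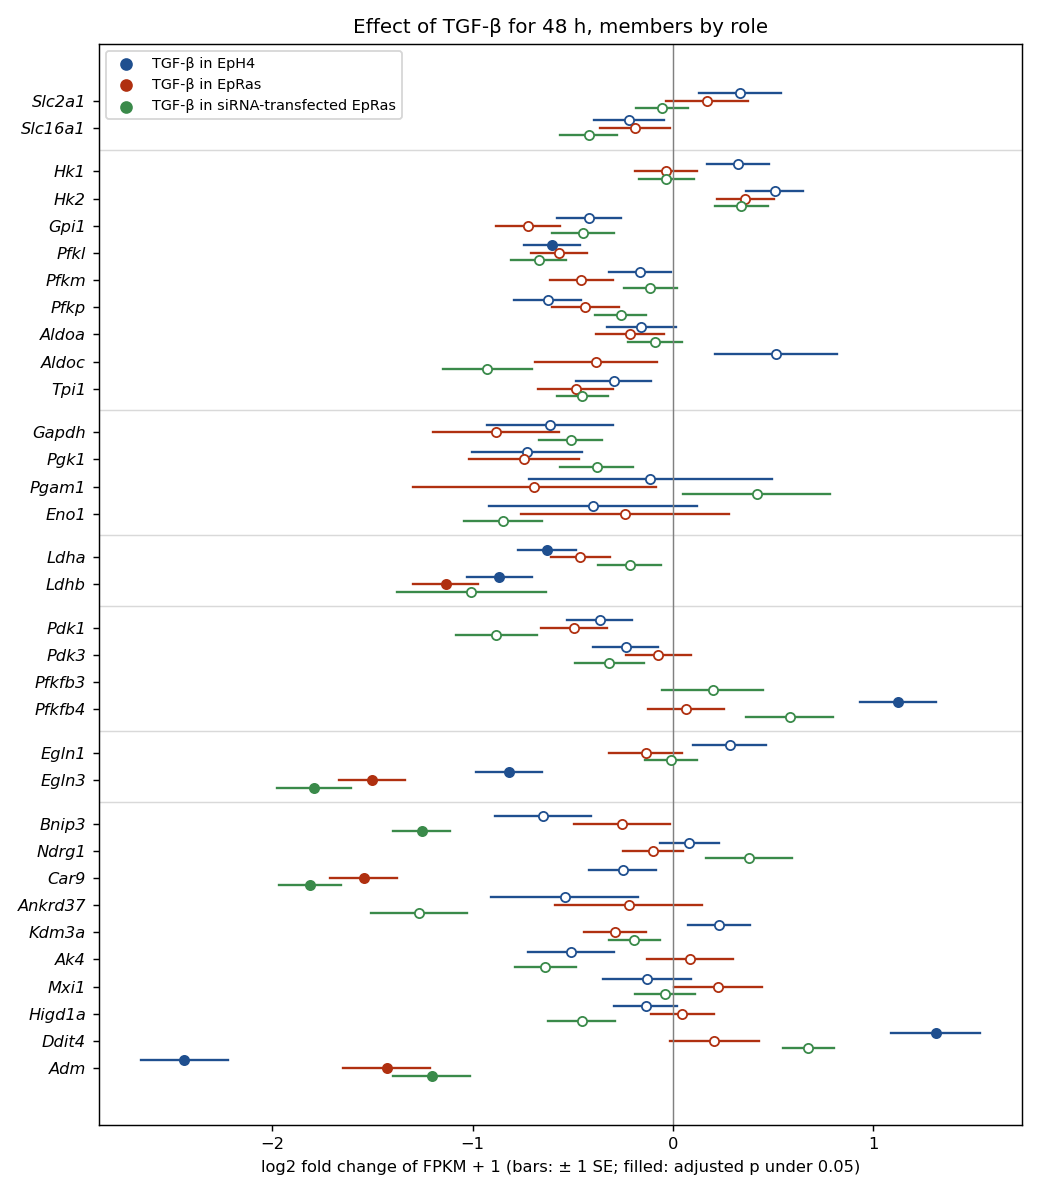
Effect of TGF-β for 48 h on the tested members in EpH4 cells, in EpRas cells and across the 3 siRNA conditions of EpRas cells, as log2 fold change of FPKM + 1 with bars of 1 SE. Filled points passed the test. Egln3 and Adm were filled in all 3, and Car9 in both sets of EpRas cells only.

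The knockdown of Etv4 and Etv5 was compared with siNC in 2 ways. In a fit over both TGF-β states (limma), which takes the 2 siRNA pairs and the 2 TGF-β states as the replicates and has 1 siNC library per state, 1 of the 33 genes rose, against 0.77% of all genes tested, and 0 fell, against 1.35%, with 8 members at an unadjusted p under 0.05, where 22.7% of all genes tested were. The median log2 fold change was -0.24 over the 33 genes and 0.027 over all genes. By a rule of size with no test, a gene counted where both pairs were past 1.5-fold of siNC in 1 direction. Without TGF-β, 2 members were higher, against 7.84% of all genes considered, and 4 were lower, against 8.51%. With TGF-β, 1 was higher, against 6.68%, and 5 were lower, against 7.83%. Each ratio rests on a single siNC library, which both pairs share.

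Egln1, the main oxygen sensor among the prolyl hydroxylases, was the gene called higher, and it lost the call without either pair. It was 29.2, 64.7 and 72.6 FPKM with siNC, pair 1 and pair 2 without TGF-β, and 28.3, 69.1 and 68.6 with TGF-β (1.23 ± 0.14 (SE), adjusted p = 0.0234). Both pairs stood at 222% and 249% of siNC without TGF-β and 244% and 242% with it, and no knockdown library overlapped a control library. The intervals that Cuffdiff gave were 15.4 to 42.9 FPKM for untreated siNC and 34.3 to 95.1 for pair 1. In untransfected EpRas cells, in the separately made table, Egln1 was 54.8 and 50.8 FPKM, between the control and the knockdown libraries. Without pair 1 or pair 2 the adjusted p of Egln1 was 0.174 or 0.0726, while its log2 fold change stayed between 1.13 and 1.27 over the alternatives.

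Pfkm, the muscle-type subunit of phosphofructokinase, was lower with both pairs. It was 41.8, 12.2 and 18.4 FPKM without TGF-β and 40.6, 10.2 and 17.6 with it, a log2 difference of -1.47 (95% interval -2.11 to -0.84, adjusted p = 0.052). The pairs stood at 29.3% and 44.0% of siNC without TGF-β and 25.1% and 43.3% with it. In untransfected EpRas cells Pfkm was 20.0 and 19.5 FPKM untreated and 13.1 and 15.2 with TGF-β, nearer to the knockdown libraries than to siNC. Pfkm was called with 5 FPKM added (adjusted p = 0.0383), with median-ratio scaling (0.0489) and without pair 2 (0.0453), and its adjusted p over all alternatives ran from 0.0383 to 0.174. Pfkfb3 was 2.92, 1.13 and 1.66 FPKM without TGF-β and 6.31, 0.717 and 1.67 with it, a log2 difference of -1.24 (95% interval -1.99 to -0.50, adjusted p = 0.0932). It passed the filter of 5 FPKM, and so entered the test and the counts past 1.5-fold, only through the siNC library with TGF-β. In untransfected EpRas cells its mean was 1.02 FPKM untreated and 0.643 with TGF-β, nearer to the knockdown libraries than to siNC. Pfkfb4 was 17.6, 7.28 and 9.21 FPKM without TGF-β and 19.8, 10.2 and 21.6 with it, so it was lower with both pairs only in untreated cells. Pfkl, the liver-type subunit, was 85.2, 104 and 80.5 FPKM without TGF-β, with the control between the pairs.

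The remaining members past 1.5-fold were so in 1 TGF-β state only. Without TGF-β, Ankrd37 was 4.02, 9.17 and 9.64 FPKM, on 21, 65 and 64 reads, while with TGF-β it was 2.31, 2.36 and 2.48, on 21, 17 and 16. Pgam1 was 323, 209 and 124 FPKM without TGF-β, and 204, 323 and 304 with it, where both pairs were above siNC. With TGF-β, Ldhb was 5.05, 0.807 and 0.700 FPKM, on 71, 9 and 7 reads, while without it Ldhb was 4.58, 5.28 and 3.31, on 37, 58 and 34. The siNC libraries were thus close to each other, while for each pair the library with TGF-β was far below the untreated one. In untransfected EpRas cells, from a separate run of Cuffdiff, Ldhb fell as well, from 4.62 and 4.83 to 1.82 and 1.41 FPKM. The siNC library with TGF-β was therefore the one set apart, so the low ratios cannot be read as an effect of the knockdown alone. Egln3 with TGF-β was 35.2% and 39.2% of siNC for pair 1 and pair 2, and Gpi1 was 57.2% and 60.3%. Gpi1 was 314, 179.7 and 189 FPKM with TGF-β and 348, 272 and 287 without it, where the pairs stood at 78.2% and 82.5% of siNC. In untransfected EpRas cells with TGF-β, Egln3 was 1.28 and 0.928 FPKM and Gpi1 had a mean of 171 FPKM, nearer to the pairs than to siNC. In untreated untransfected EpRas cells, Ankrd37 had a mean of 4.07 FPKM, nearer to siNC, and Pgam1 had 251 FPKM, between siNC and the pairs. Whether the ratios to siNC differ between the TGF-β states was not tested. With 2-fold in place of 1.5-fold, 3 members remained without TGF-β and 5 with it, against 5.13% and 4.86% of all genes considered.

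**Figure D4:**
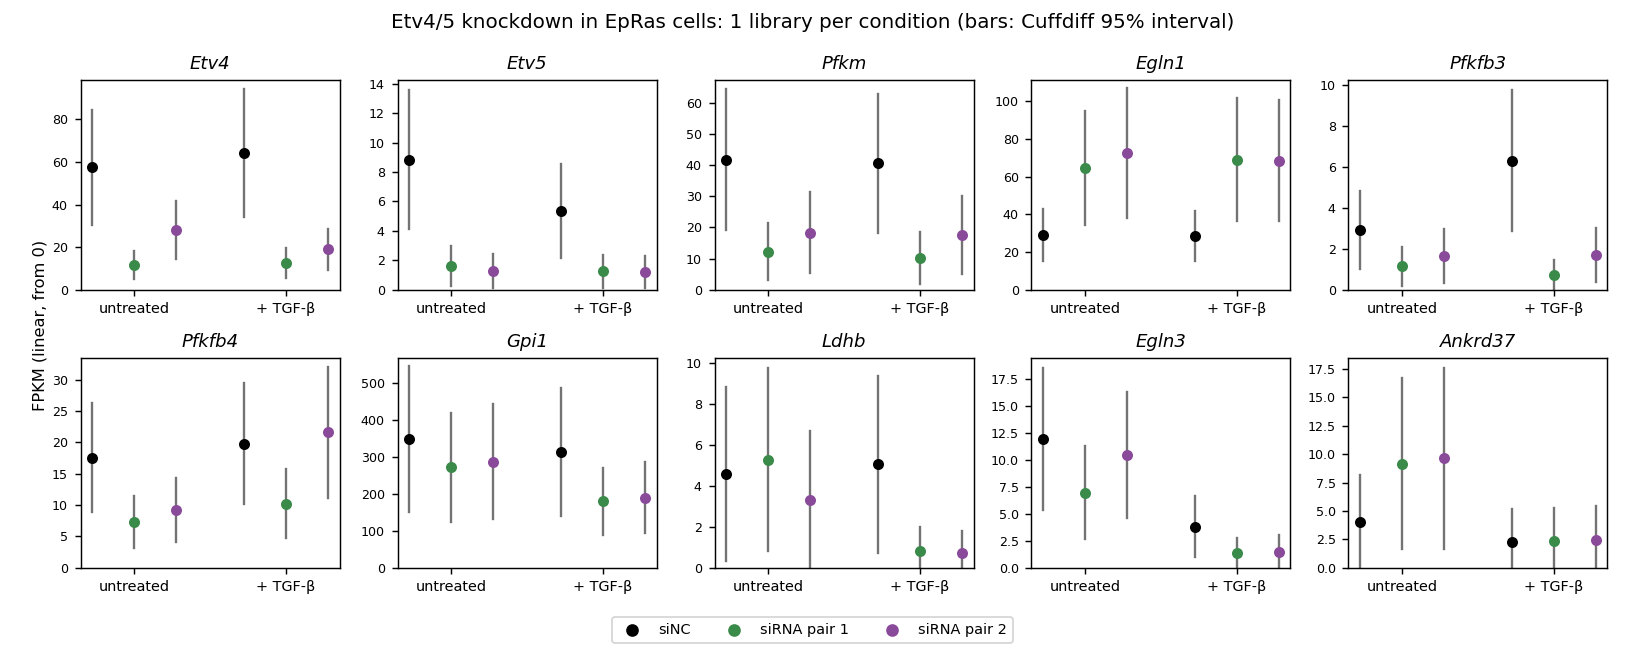
FPKM of Etv4, Etv5 and 8 members in the 6 transfected EpRas libraries, on linear axes from 0, 1 library per point, with the 95% interval of Cuffdiff as a bar. Egln1 was higher and Pfkm and Pfkfb3 were lower with both siRNA pairs in both TGF-β states, while Ldhb and Egln3 were past 1.5-fold only with TGF-β.

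Where a step has several isozymes, their shares of the summed FPKM were compared as a description. Hk2 made up 31.1% and 34.2% of hexokinase RNA (Hk1 and Hk2) in untreated EpH4 cells and 37.1% and 34.4% with TGF-β. In EpRas cells its share was 18.8% and 18.3% untreated and 25.0% and 22.0% with TGF-β, below every EpH4 library. Pfkl made up 67.9% to 73.8% of phosphofructokinase RNA in all 8 untransfected libraries, so that its share hardly moved while the summed FPKM went from 87.0 and 92.5 in untreated EpH4 cells to 149 and 143 in untreated EpRas cells. In transfected cells Pfkm made up 27.8% of phosphofructokinase RNA with siNC and 8.65% and 15.0% with pairs 1 and 2 without TGF-β. Ldhb was under 1% of lactate dehydrogenase RNA in every untransfected library, at 0.835% and 0.806% in untreated EpH4 cells and 0.231% and 0.172% in EpRas cells with TGF-β. Aldoa made up at least 98.0% of aldolase RNA in every library of both tables.

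Summed over the 16 glycolytic and lactate dehydrogenase genes present, the level was 4401 and 4248 FPKM in untreated EpH4 cells and 3256 and 3145 with TGF-β. It was 6596 and 6130.1 FPKM in untreated EpRas cells and 3972 and 5191 with TGF-β. The lowest EpRas library with TGF-β was thus below both untreated EpH4 libraries. As a share of the summed FPKM of the library, which was lowest in that library, the 16 genes made up 0.779% and 0.686% in untreated EpH4 cells, 0.569% and 0.543% in EpH4 cells with TGF-β, 1.07% and 1.12% in untreated EpRas cells and 0.806% and 0.844% in EpRas cells with TGF-β. On that scale the 4 groups did not overlap for these 16 genes, and both EpRas libraries with TGF-β stood above the untreated EpH4 libraries. Pyruvate kinase, listed as Pkm2, is not in these sums, although its RNA was abundant. Its mean was 1565 FPKM in untreated EpH4 cells and 1068 with TGF-β, and 1465 in untreated EpRas cells and 833 with TGF-β. The order of the groups is given for the 16 genes only and may not hold with Pkm2 added. In the siRNA table the sums were 6429 FPKM with siNC, 5420.4 with pair 1 and 5341 with pair 2 without TGF-β. With TGF-β they were 4907, 4383 and 4474 FPKM, each below its untreated partner. These sums are led by Aldoa, Gapdh and Ldha, except that with pair 1 without TGF-β Tpi1 (605 FPKM) stood above Ldha (558 FPKM).

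**Figure D5:**
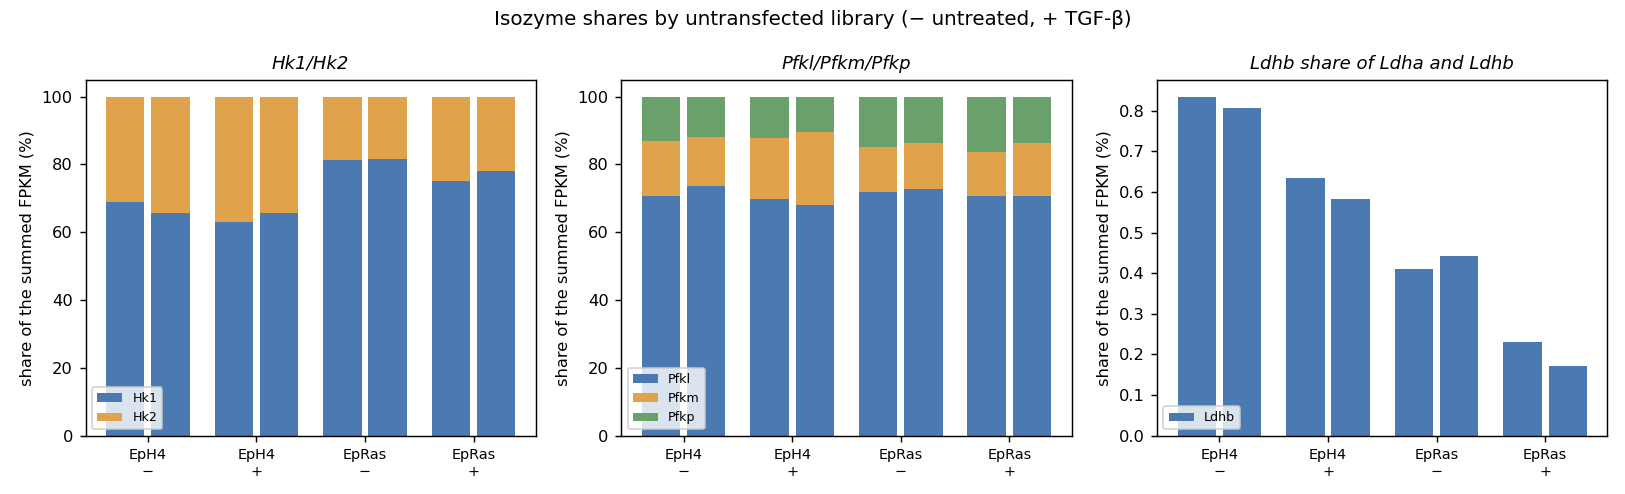
Shares of hexokinase, phosphofructokinase and lactate dehydrogenase RNA by isozyme in each of the 8 untransfected libraries, in percent of the summed FPKM of the isozymes shown. Hk2 took a smaller share in every EpRas library than in any EpH4 library, Pfkl took 67.9% to 73.8%, and Ldhb was below 1% throughout.

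Of 7 genes of the HIF pathway outside the 36, 5 were tested in untransfected cells, Hif1a, Arnt, Vhl, Egln2 and Hif1an, and 0 were called in any of the 5 comparisons in limma, with 2 at an unadjusted p under 0.05 between the lines with TGF-β, where 35.8% of all genes tested were, and 0 in the others. Without EpRas replicate 2 with TGF-β, Hif1a was called higher in EpRas cells with TGF-β (log2 difference 1.19, adjusted p = 0.0119), and over all alternatives of that comparison its adjusted p ran from 0.0119 to 0.676. Hif1a was 8.70 and 7.46 FPKM in untreated EpH4 cells, 6.68 and 8.45 with TGF-β, 11.5 and 13.2 in untreated EpRas cells and 18.5 and 10.2 with TGF-β. Its log2 difference between the lines was 0.56 (95% interval -0.07 to 1.19, adjusted p = 0.199) without TGF-β and 0.79 (95% interval 0.16 to 1.42, adjusted p = 0.0775) with it. Arnt lay between 7.35 and 9.43 FPKM, Vhl between 5.65 and 10.5, Egln2 between 25.8 and 40.0 and Hif1an between 7.84 and 9.33 over all 8 libraries. Epas1, which encodes HIF-2α, was under the filter at 2.05 and 1.93 FPKM in untreated EpH4 cells and 0.183 and 0.308 with TGF-β. In EpRas cells Epas1 was 1.79 and 1.87 and 0.270 and 0.545 FPKM, so the treated libraries were below the untreated ones in both lines.

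Other isozymes and branches of glucose metabolism gave 6 genes higher and 1 lower in EpRas cells of 18 tested without TGF-β, where 8.45% and 9.11% of all genes tested were called, and 4 higher and 1 lower with it, where 8.92% and 12.3% were. The genes with the largest rises in level from EpH4 to EpRas cells without TGF-β were G6pdx, the entry enzyme of the pentose phosphate pathway (2.09 ± 0.20 (SE), adjusted p = 0.000589), Eno3, an enolase of muscle (1.26 ± 0.17 (SE), adjusted p = 0.00318), and Pgd, which follows G6pdx (1.01 ± 0.17 (SE), adjusted p = 0.00759). The others called higher were Pygb, Pgm2 and Gys1 of glycogen metabolism, and Pcx, which carboxylates pyruvate, was lower (-1.48 ± 0.20 (SE), adjusted p = 0.00299). With TGF-β, G6pdx, Eno3, Pgd and Dlat were higher and Pcx was lower. TGF-β itself changed 0 of these 18 genes in EpH4 and 0 in EpRas cells at the threshold in limma, with 3 and 8 at an unadjusted p under 0.05, where 23.9% and 15.8% of all genes tested were, and across the siRNA conditions it lowered 1 of 22, Pgm2, against 1.55% of all genes tested. The knockdown lowered 2 of 22, against 1.35% of all genes tested, Pcx (-1.23 ± 0.19 (SE), adjusted p = 0.0383) and Pfkfb2 (-1.19 ± 0.21 (SE), adjusted p = 0.049995). Both calls were lost without pair 1, without pair 2 and with no filter. Pfkfb2 also lost its call with 0.1 or 5 FPKM added and with TPM scaling. It was still called with median-ratio scaling (adjusted p = 0.0486 in limma). At an unadjusted p under 0.05 there were 12 of the 22, 11 of them lower, against 22.7% of all genes tested, and the median log2 fold change of the 22 was -0.50.

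Of 23 further hypoxia-responsive genes tested, 1 was higher (Kdm4b) and 2 were lower (Angptl4 and Bhlhe40) in EpRas cells without TGF-β, near or below the 8.45% and 9.11% of all genes tested. With it, 3 were higher (Errfi1, Stc2 and Nampt), against 8.92%, and 2 were lower (Angptl4 and Bhlhe40), against 12.3%. In contrast to Car9, Egln3 and Adm, the HIF target Vegfa, an angiogenic factor, rose with TGF-β in EpH4 cells (2.68 ± 0.17 (SE), adjusted p = 0.000192), in EpRas cells (2.50 ± 0.17 (SE), adjusted p = 0.000524) and across the siRNA conditions (2.08 ± 0.19 (SE), adjusted p = 0.0128). Bhlhe40, a repressor induced by hypoxia, rose in all 3 as well, by log2 fold changes of 1.80, 1.00 and 1.49. In EpH4 cells Cited2 also rose, which made 3 of 23 against 6.48% of all genes tested, and Nampt, Rbpj and Errfi1 fell, 3 of 23 against 2.91%. In EpRas cells Errfi1 rose as the third gene, against 1.9% of all genes tested, and 0 fell, against 1.92%, with 2 lower at an unadjusted p under 0.05 in limma. Across the siRNA conditions P4ha2 rose as the third gene, against 2.62%, and Bhlhe41 fell, against 1.55%. The knockdown changed 0 of the 23 at the threshold in limma, with 3 at an unadjusted p under 0.05, against 22.7% of all genes tested.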

How the data were processed

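RNA had been isolated with oligo(dT) beads, made into directional libraries and sequenced on the Ion Proton. Per the submitters' processing notes and the study's methods, reads were aligned to mm10 with TopHat2 2.0.11 and Bowtie2 2.2.2.2 and quantified with Cufflinks 2.2.0. The values deposited by the authors are FPKM with the ends of Cuffdiff's interval, in 2 tables from separate runs. Genes without an OK status, 3 and 2 in the tables, were left out. FPKM divides by the library total, so a rise of abundant genes lowers all others. The 14 libraries were grouped by their labels, and no per-sample column was left out (0).

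Genes with an OK status and a maximum of at least 5 FPKM were tested on log2(FPKM + 1) with limma 3.58.1 in R 4.3.3, with group means for untransfected cells and with terms for siRNA condition or knockdown and for TGF-β in the siRNA table. Benjamini-Hochberg adjustment covered all genes tested. Reads were recovered for low genes from the steps between values (within 0.01 of a whole number) and used to state relative depth and the reads behind low members, and in no test. The members and gene lists were chosen with earlier results of these data known. For members past the adjusted threshold of 0.05 in an untransfected comparison, values were given for every library of that comparison. For members past 1.5-fold in both siRNA pairs, they were given for the siRNA libraries of that TGF-β state. Other members were given by range and count or, where a comparison turned on them, by library, and 6 genes of the HIF pathway were named whatever they did, beside listed genes past the threshold. The study describes the expression data of untransfected cells as 2 biological replicates. Alternatives were 0.1 or 5 FPKM added, no filter or a mean of 10 FPKM, other scalings, other fits, a replicate block, and leaving out each library. Promoter stretches came from RefSeq windows on GRCm38.p6, matched for 35 members.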

Additional observations from a re-analysis of the deposited data

Results flagged for a closer look

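Of the 23 further hypoxia-responsive genes, 1 had an effect of TGF-β that differed between the lines by a test of the difference itself, as did 73 of all 9100 genes tested, 2 mammary epithelial markers and 2 markers of other cell types among them. Errfi1, an inhibitor of the EGF receptor that hypoxia can induce, differed by 1.54 ± 0.25 (SE) on the log2 scale, with adjusted p = 0.0472 in limma. It fell by 0.71 in EpH4 cells and rose by 0.83 in EpRas cells. The adjusted p lies just under the threshold, and how far the call of Errfi1 holds over the alternatives was not examined. Over all genes, limma fits of this term with all libraries called from 24 (mean of at least 10 FPKM) to 117 (no filter). Groups of 2 libraries were too small for a search for single deviating libraries.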

How the results depend on the processing

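Of 63 log2 fold changes, all of members except those of Hif1a, 0 changed direction in the 993 alternatives computed for them. Of these alternatives, 182 lost the call and 14 gained one. Counts of members called moved by more than 1.5 times as follows. A filter at a mean of 10 FPKM, which tests fewer members, gave 7 for the lines without TGF-β, 8 for the lines with TGF-β, 4 for TGF-β in EpH4 cells and 1 for TGF-β in EpRas cells. The Tukey-Kramer test gave 2, 2, 1 and 0. TPM scaling gave 4 for TGF-β in EpH4 cells, and the fit of only the groups compared gave 0 for TGF-β in EpRas cells. Adding 5 FPKM gave 1 for the difference in effect and 2 for the knockdown, and median-ratio scaling gave 2 for the knockdown. For TGF-β across the siRNA conditions, no filter, leaving out pair 1 and leaving out pair 2 gave 0 each, and for the knockdown leaving out pair 1 gave 0. Without 1 library, counts ran from 6 to 17 and from 4 to 15 for the lines without and with TGF-β, from 1 to 9 for TGF-β in EpH4 cells and from 2 to 5 in EpRas cells, and stayed at 0 for the difference in effect. By the rule of size, without TGF-β 2-fold gave 3 of 33 members (5.13% of all genes) and pair 1 only gave 13 (28.5%). With TGF-β, the mean of both pairs gave 10 (23.1%), pair 1 only gave 12 (28.5%), pair 2 only gave 11 (24.9%) and a mean of 10 FPKM gave 3 of 25 (12.4%). In these cases the cause was not tested, beyond the smaller number of members or libraries.

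Replicate numbers were shared between groups, but same-numbered libraries did not deviate in the same direction (correlations of -0.35 to 0.078), so the numbers were not taken as pairs. The correlation was -0.35 between the 2 EpRas groups and -0.26 between the 2 untreated groups. Whether libraries of different numbers share variation was not tested. With a replicate block, 12, 15, 5, 4 and 0 members were called in the 5 comparisons, and over all genes the block gave 547 calls in place of 855 for TGF-β in EpH4 cells, 222 in place of 348 in EpRas cells and 31 in place of 73 for the difference in effect. No paired analysis was possible for the siRNA libraries beyond the siRNA condition as a block, because each condition had 1 library.

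Over all genes, the Tukey-Kramer test called 169 and 475 for the lines without and with TGF-β, 191 for TGF-β in EpH4 cells and 8 in EpRas cells, against 1598, 1935, 855 and 348 in limma. A filter at a mean of 10 FPKM called 880, 1092, 559 and 225 in the same order, and 24 in place of 73 for the difference in effect. Only the 2 groups compared gave 45 for TGF-β in EpRas cells. With no filter, TGF-β across the siRNA conditions called 1 gene in place of 379 and the knockdown 42 in place of 193. Without pair 1 these were 6 and 0, and without pair 2 they were 24 and 100. Relative depth differed between libraries, from 0.609 to 1.36 among untransfected cells, so low members carry the most counting error.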
